A study of Mus musculus with 40 samples.

Results

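The amygdala of naive germ-free mice (GF) was compared with that of naive conventionally raised mice (CON), using every library the labels place in those 2 groups. These are 8 of the 40 libraries in the series, 4 of CON and 4 of GF, named CON-P1 to CON-P4 and GF-P1 to GF-P4 by their columns. The mice were Swiss Webster animals aged 10 weeks, an outbred stock with no engineered allele, and the methods give them as male offspring of the first generation. GF mice lived in isolators without microbes and CON mice in a standard facility, and neither group had been through the social test given to other groups of the study. The GF and CON mice descended from different breeding pairs, so colonisation status and breeding stock cannot be told apart. Each naive library holds pooled RNA of 2 to 3 animals according to the series design, except that the study's library list gives GF-P2 as a single animal. The p-values therefore measure the spread between such pools. The other libraries used here were 8 of CON-SI and 12 of GF-SI, each from 1 mouse of the same stock taken after social interaction. The colonised former germ-free mice (exGF) are in none of these comparisons and entered only an alternative fit over 6 groups.

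The amygdala is a set of brain nuclei that links sensory input with fear, reward and social behaviour. Its neurons switch on immediate early genes such as Fos, Fosb, Arc and Npas4 for a short time after they fire, and the levels of these transcripts are widely read as a trace of recent activity. Microglia, the immune cells of the brain, and the vessels and choroid plexus, which face the blood, are other cells of the tissue through which gut microbes are discussed to act.

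Total counts per library ran from 10153860 to 15320023. Reads on Gm42418, a gene model within ribosomal DNA, made up 32.3% of CON-P1 and 18.5% of CON-P3 but at most 0.107% of any other naive library. CON-P1 also stood apart on the first principal component, which held 34.1% of the variance. Results were therefore also computed without CON-P1 and CON-P3. Levels are given as CPM, counts relative to the library's total after TMM scaling over the 8 libraries. Levels after social interaction were scaled separately, over the 20 CON-SI and GF-SI libraries. A log2 fold change is GF over CON with its standard error (SE). A gene was called at an adjusted p under 0.1 in edgeR's quasi-likelihood test with Benjamini-Hochberg (BH) adjustment over all genes tested.

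Few genes passed the test in naive mice. Of 14811 genes, 8 were higher (0.054%) and 13 lower (0.0878%) in GF libraries, 0.142% in all, and 1636 (11%) had an unadjusted p under 0.05. DESeq2 called 155 genes, 67 higher (0.401%) and 88 lower (0.527%), or 0.927% of the 16714 genes to which it gave an adjusted p, and these held all 21 of the edgeR calls. The GF and CON libraries did not overlap for any of the 21 called genes, against 5.95% of all genes tested (3.08% with GF higher and 2.87% with GF lower).

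**Figure D1:**
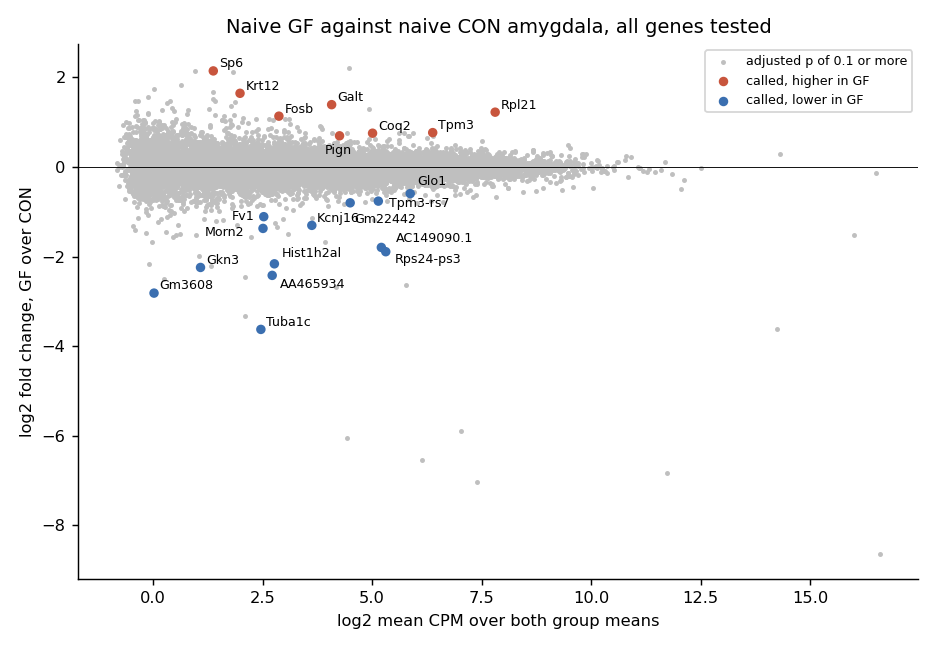
Log2 fold change of GF over CON (vertical axis) against the log2 of the mean CPM of both groups (horizontal axis), 1 point per gene tested; red points are the 8 genes called higher and blue points the 13 called lower in GF. The grey points far below 0 include Gm42418 and other ribosomal RNA gene models, whose counts were high in CON-P1 and CON-P3.

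Fosb, which encodes a partner in the AP-1 transcription factor, was the one immediate early gene that passed the test. It was measured at 4.89, 4.47, 4.31 and 4.71 CPM in CON-P1 to CON-P4 and at 9.44, 10.7, 9.39 and 10.6 CPM in GF-P1 to GF-P4. All 4 GF libraries lay at about the same level, above every CON library. Its log2 fold change was 1.13 (SE 0.13, adjusted p = 0.00598, edgeR). It kept the call with each of the 8 libraries left out in turn and without both CON-P1 and CON-P3, but not in one fit over 6 groups (adjusted p = 0.108).

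Several other activity-induced genes were uneven among the GF libraries. Fos, the best known of them, was at 6.92, 13.3, 11.2 and 6.77 CPM in CON and at 4.69, 18.4, 29.1 and 22 CPM in GF. GF-P1 was below all CON libraries, and the other 3 GF libraries were above them. Its log2 fold change was 0.92 (SE 0.41, adjusted p = 0.443 from edgeR), so the difference did not pass. Arc, a synaptic protein gene, had the same order, with 33.0 CPM in GF-P1, 85.1 to 135 CPM in the other GF libraries and 43.0 to 69.0 CPM in CON. Egr2, a zinc finger factor, was at 2.44 CPM in GF-P1 and at 5.58, 14.9 and 11.2 CPM in GF-P2 to GF-P4, against 3.04 to 5.77 CPM in CON. GF-P1 likewise lay below every CON library for Junb, another AP-1 gene, for Dusp1, a phosphatase of MAP kinases, and for Btg2 and Gadd45b, which restrain growth. In GF-P2 to GF-P4 these 4 genes were above every CON library. Over the 43 activity-induced genes tested, the median log2 level relative to the CON mean was -0.17 in GF-P1 and 0.15, 0.40 and 0.33 in GF-P2, GF-P3 and GF-P4.

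Among the activity-induced transcription factors, 18 of 21 were tested and 1 was called, with 4 higher and 1 lower in GF at an unadjusted p under 0.05 and a median log2 fold change of 0.16, which was 0.09 without GF-P3 and 0.08 without GF-P4 or without CON-P1 and CON-P3. Over all genes 5.25% were higher and 5.79% lower at that p, and the median was 0.00. Npas4, a factor that neurons induce on firing, was at 4.84 to 9.13 CPM in CON and at 7.25, 13.1, 18.2 and 11.9 CPM in GF (log2 fold change 0.80, unadjusted p = 0.0104). Jund was at 12.9 to 21.6 CPM in CON and at 23.9 to 30.6 CPM in GF without overlap, yet its adjusted p was 0.28 in edgeR. Nr4a3, a nuclear receptor, went the other way, with 26.8 to 39.7 CPM in CON and 17.5 to 30.1 CPM in GF (log2 fold change -0.43). Egr3 was at 16 to 19.1 CPM in CON and 15.5 to 27.4 CPM in GF. Of the 25 induced effector genes all were tested, none was called, 7 were higher and none lower at an unadjusted p under 0.05. Inhba, Nptx2 and Sik1 were among the higher ones (log2 fold changes 1.15, 0.53 and 0.40), while Bdnf, a neurotrophin, differed by -0.03 and Ier5 by -0.10.

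Several metabolic genes were called. Pign, whose product adds ethanolamine phosphate to the anchors that hold proteins on the cell surface, was measured at 14.3, 13.5, 14.4 and 16.1 CPM in CON and at 21.7, 22.8, 24.8 and 25.3 CPM in GF. The spread within each group was small next to the gap between them. Its log2 fold change was 0.69 (SE 0.10, adjusted p = 0.0364, edgeR with BH adjustment), and the call was lost without CON-P2 and without CON-P1 and CON-P3 together (adjusted p = 0.136 and 0.25). Coq2, which makes a precursor of coenzyme Q, was at 25.6, 20.7, 29.4 and 20.4 CPM in CON and at 33.4, 41.1, 45.3 and 41.6 CPM in GF. All GF libraries were above the CON ones, with a log2 fold change of 0.75 (SE 0.13, adjusted p = 0.0876 from edgeR).

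Glo1, the enzyme that starts the removal of methylglyoxal, fell by 0.59 on the log2 scale (SE 0.10, adjusted p = 0.0612 from edgeR). It was measured at 74.2, 75.0, 72.9 and 59.3 CPM in CON and at 48.3, 41.5, 47.9 and 48.3 CPM in GF. CON-P4 was the lowest CON library but still above the highest GF library. Of the 5 genes tested in a list of glyoxalases and methylglyoxal detoxification it alone was called.

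Kcnj16, the inward rectifier potassium channel subunit Kir5.1, was at 17.7, 20.9, 20.7 and 10.9 CPM in CON and at 9.63, 6.12, 7.2 and 5.4 CPM in GF. The lowest CON library, CON-P4, was near the highest GF library, GF-P1. Its log2 fold change was -1.30 (SE 0.23, adjusted p = 0.0763 from edgeR). None of the other 10 inward rectifiers tested was called.

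Gkn3, a gastrokine that in mouse brain marks arterial endothelium, was low in all libraries, at 3.71, 3.41, 3.04 and 3.85 CPM in CON and 0.975, 0.884, 0.615 and 0.45 CPM in GF. The groups were far apart for so low a transcript. It fell by 2.24 on the log2 scale (SE 0.26, adjusted p = 0.00598 from edgeR) and kept the call with each library left out. Of 13 markers of endothelium and pericytes, 5 had a positive and 8 a negative log2 fold change. Their median was -0.07, and it was 0.02 without CON-P1 and CON-P3. None of the 13 was called, and 3 were lower and none higher at an unadjusted p under 0.05. Over all genes 5.79% were lower at that p.

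Fv1, a restriction factor against retroviruses that derives from a retroviral gag gene, was at 10.3, 7.17, 7.95 and 6.37 CPM in CON and 3.23, 4.28, 2.55 and 4.22 CPM in GF. It fell by 1.11 on the log2 scale (SE 0.20, adjusted p = 0.0992 from edgeR), close to the threshold. Krt12, a keratin known from the cornea, and Sp6, a member of the Sp family of transcription factors, were both rare. Krt12 was at 1.52, 2.56, 2.03 and 1.39 CPM in CON and 4.57, 6.26, 8.43 and 4.89 CPM in GF (log2 fold change 1.64, SE 0.26, adjusted p = 0.0523, edgeR). Sp6 was at 0.506, 0.923, 1.35 and 0.862 CPM in CON and 4.08, 5.92, 5.0 and 2.08 CPM in GF (log2 fold change 2.14, SE 0.36, adjusted p = 0.0627, edgeR).

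For some of these genes the counts may include reads of a neighbour, because reads were counted without strand. Krt12 overlaps the exons of the opposite-strand gene A830036E02Rik, which was at 8.60, 15.8, 6.0 and 1.46 CPM in CON and 34.4, 38.8, 40.6 and 31.7 CPM in GF (log2 fold change 2.20, adjusted p = 0.104, edgeR). Sp6 overlaps Gm11532, and Morn2 overlaps Dhx57, in each case on the opposite strand. Of the other called genes, Glo1 and Hist1h2al also overlap exons on the opposite strand. Glo1, Pign and Rpl21 overlap exons of other genes on the same strand. Morn2 was at 7.26, 9.02, 7.52 and 8.95 CPM in CON and at 3.78, 1.84, 3.78 and 3.37 CPM in GF, and fell by 1.37 on the log2 scale (SE 0.21, adjusted p = 0.0464, edgeR).

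Of the 21 calls, 15 were lost when at least 1 library was left out. Glo1, Sp6, Gm3608, Kcnj16, Rpl21 and Coq2 stayed past the threshold in 2 of the 8 fits that each left out 1 library, and Gm22442, AA465934, Galt and Fv1 in 1 of 8. The kept fits were those without CON-P4 and GF-P4 for Glo1, CON-P3 and GF-P4 for Sp6, GF-P2 and GF-P3 for Gm3608, CON-P4 and GF-P1 for Kcnj16, CON-P1 and GF-P4 for Rpl21, and CON-P3 and GF-P1 for Coq2. For Gm22442 and Fv1 it was the fit without CON-P4, and for AA465934 and Galt the one without GF-P4. Their log2 fold changes kept their sign in all 8 fits, from -0.67 to -0.54 for Glo1, 1.94 to 2.38 for Sp6, -1.5 to -1.19 for Kcnj16, 0.68 to 0.87 for Coq2, 1.23 to 1.61 for Galt and -1.21 to -0.99 for Fv1. The highest adjusted p in these fits was 0.236, for Fv1. Tuba1c, Fosb, Rps24-ps3, Gkn3, Tpm3-rs7 and AC149090.1 were called in all 8. Of these, Fosb, AC149090.1, Rps24-ps3 and Tpm3-rs7 lost the call in one fit over 6 groups (adjusted p = 0.108, 0.137, 0.605 and 0.804). Morn2 lost its call without CON-P2 (adjusted p = 0.136), Krt12 without CON-P3 or CON-P4 (at most 0.108) and Tpm3 without CON-P2, CON-P3, CON-P4 or GF-P3 (at most 0.136). Without both CON-P1 and CON-P3, 10 of the 21 genes were still called.

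**Figure D2:**
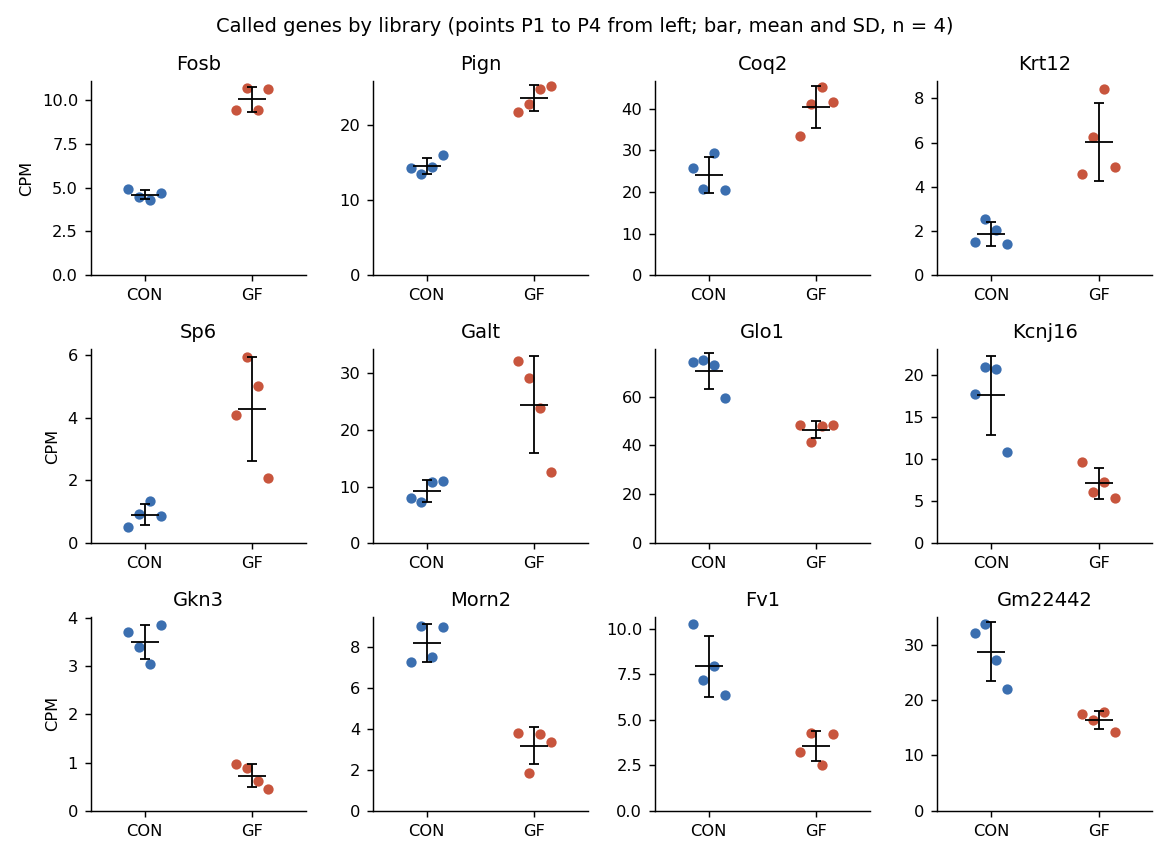
CPM (vertical axis, from 0) of 12 called genes in the 4 CON (blue) and 4 GF (red) libraries, P1 to P4 from left to right within a group, with the mean and SD (n = 4). The groups do not overlap in any panel, while GF-P4 lies near the CON libraries for Galt and CON-P4 near the GF libraries for Kcnj16.

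Gm22442, a small Cajal body RNA of the class that guides the modification of spliceosomal RNAs, lies in an intron of Chd3 on chromosome 11 (69350518 to 69350661, minus strand, GRCm38). Another small Cajal body RNA, Gm23386, matches it at 95.1% over 143 bases, so its level is uncertain. Gm22442 was measured at 32.1, 33.7, 27.2 and 22 CPM in CON and at 17.5, 16.3, 17.8 and 14.2 CPM in GF. All CON libraries were above the GF ones, and it fell by 0.80 on the log2 scale (SE 0.14, adjusted p = 0.0763, edgeR). Its sequence of 144 bases in GENCODE vM21 is shown whole, since it is the shortest of the called RNAs. The capitals mark the ACA nearest its end, which is followed by 3 bases.
Gm22442: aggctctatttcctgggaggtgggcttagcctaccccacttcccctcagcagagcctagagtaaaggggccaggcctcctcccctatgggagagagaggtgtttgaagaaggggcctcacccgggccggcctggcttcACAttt
Of the small nucleolar and Cajal body RNAs known by a Snora, Snord or Scarna name, 7 were tested and none was called. Scarna2 was the 1 lower at an unadjusted p under 0.05, at 35.6 to 46.9 CPM in CON and 18.2 to 36.8 CPM in GF.

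Of the 21 called genes, 8 matched another gene at 95% identity or more over at least 25% of the transcript that gave the best match. Reads from such genes can be assigned to the wrong copy or dropped, so their levels are uncertain. The following stretches of 80 bases show how little separates 2 of these pairs, and Glo1 from Gm13443, which aligned over less than 25% of the Glo1 transcript compared. Each is the window of coding sequence with the most differences, taken from GENCODE vM21 transcripts, with capitals where the 2 members differ.
Tpm3: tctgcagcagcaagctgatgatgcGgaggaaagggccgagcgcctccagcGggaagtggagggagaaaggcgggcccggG
Tpm3-rs7: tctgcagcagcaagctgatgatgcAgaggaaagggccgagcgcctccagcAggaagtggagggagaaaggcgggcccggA
Rps24: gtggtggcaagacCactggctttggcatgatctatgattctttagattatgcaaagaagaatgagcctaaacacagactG
Rps24-ps3: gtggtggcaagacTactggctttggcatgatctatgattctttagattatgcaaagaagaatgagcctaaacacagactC
Glo1: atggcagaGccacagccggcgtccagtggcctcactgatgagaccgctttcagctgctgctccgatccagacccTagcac
Gm13443: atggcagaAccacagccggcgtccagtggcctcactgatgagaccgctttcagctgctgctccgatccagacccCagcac

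Tpm3, an actin-binding tropomyosin on chromosome 3, and Tpm3-rs7, its intronless relative on chromosome 14, differed at 3 of 744 aligned coding bases and were called in opposite directions. Tpm3 was at 71.7, 48.5, 65.7 and 61.6 CPM in CON and 96.1, 100, 124 and 99.6 CPM in GF (log2 fold change 0.77, SE 0.13, adjusted p = 0.0612, edgeR). Tpm3-rs7 was at 44.0, 44.7, 39.1 and 49.5 CPM in CON and 24.3, 27.4, 29.1 and 24.1 CPM in GF (log2 fold change -0.76, SE 0.10, adjusted p = 0.0172, edgeR). The copy took 37.3% to 48.0% of the counts of the pair in CON and 19% to 21.5% in GF. The sum of the pair was 106 ± 9.75 CPM (SD, n = 4) in CON and 131 ± 14.9 CPM in GF, so the share moved more than the sum.

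Rps24 encodes a protein of the small ribosomal subunit, and Rps24-ps3 is a processed pseudogene of it on chromosome X. The pseudogene was at 76.4, 67.3, 62.7 and 44.1 CPM in CON and 25.1, 16.5, 12.0 and 13.2 CPM in GF, and fell by 1.89 on the log2 scale (SE 0.22, adjusted p = 0.00598, edgeR). Rps24 itself was at 91.8 to 121 CPM in CON and 119 to 172 CPM in GF and was not called. The sum of the pair was 167 ± 17.8 CPM (SD, n = 4) in CON and 155 ± 22.6 CPM in GF, a difference within the spread of the libraries.

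Tuba1c had the largest fall among the called genes. This alpha-tubulin gene on chromosome 15 was at 6.07, 13.3, 4.99 and 16.3 CPM in CON and at 0.914, 0.884, 0.527 and 0.956 CPM in GF, a log2 fold change of -3.63 (SE 0.40, adjusted p = 0.00598, edgeR). The CON libraries differed among themselves by more than the GF libraries did, but none came near the GF level. Tuba1b, which matches Tuba1c at 98.6% over 1336 bases, was at 99.2 to 132 CPM in CON and 122 to 155 CPM in GF, and Tuba1a was at 322 to 404 and 409 to 512 CPM. Of 16 alpha- and beta-tubulins tested, 1 was called, and the median log2 fold change was 0.22. At an unadjusted p under 0.05, 7 were higher and 2 lower in GF, against 5.25% and 5.79% of all genes.

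Gm3608, a pseudogene on chromosome 1 that matches the actin capping gene Capza1 at 99.5%, was at 1.86, 1.42, 1.44 and 2.45 CPM in CON and 0.305, 0.476, 0 and 0.169 CPM in GF (log2 fold change -2.82, adjusted p = 0.0627, edgeR). It lies beside Pign, and Capza1, on another chromosome, was not called. Hist1h2al, annotated as a histone pseudogene on chromosome 13, was at 16.9, 10.8, 6.93 and 10.0 CPM in CON and 1.89, 1.09, 4.04 and 2.87 CPM in GF (log2 fold change -2.16, adjusted p = 0.0521, edgeR). It matches other histone genes at 99.4%, and its call was lost without CON-P2 and without GF-P1 (highest adjusted p 0.136). Of 35 replication-dependent histones tested, this 1 was called. At an unadjusted p under 0.05, 7 were lower and none higher, against 5.79% and 5.25% of all genes. The median log2 fold change was -0.20, which was -0.02 without CON-P2 and -0.39 without CON-P1 and CON-P3. Hist1h4a was at 17.9 to 32.8 CPM in CON and 13.0 to 16.7 CPM in GF without overlap.

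Rpl21, a protein of the large ribosomal subunit, was at 181, 164, 95.3 and 98.8 CPM in CON and 381, 342, 309 and 221 CPM in GF (log2 fold change 1.22, SE 0.22, adjusted p = 0.0876, edgeR). Among 80 cytosolic ribosomal protein genes tested it alone was called, with 6 higher and 10 lower at an unadjusted p under 0.05. The shares of all genes at that p were 5.25% higher and 5.79% lower. Rpl29 was at 28.2 to 33.7 CPM in CON and at 1.58, 1.56, 17.4 and 0.787 CPM in GF, where GF-P3 stood between the other GF libraries and CON, and its adjusted p was 0.254 in edgeR. Rpl7a was at 63.1 to 86.7 CPM in CON and 35.4 to 52.5 CPM in GF, just outside the threshold (log2 fold change -0.72, adjusted p = 0.1002). Glo1 had a processed pseudogene, Gm13443, which was also lower in GF (log2 fold change -1.67, adjusted p = 0.156), unlike the other pairs.

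**Figure D3:**
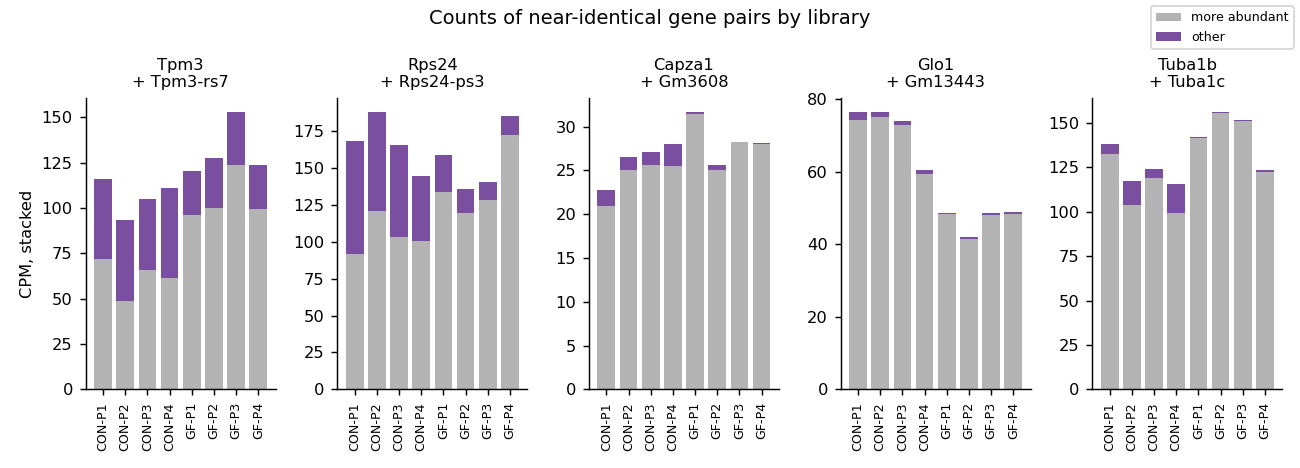
CPM per library (vertical axis, stacked bars from 0) of 5 pairs of near-identical genes, with the more abundant gene in grey and the other in purple. The purple part is smaller in every GF bar of each pair, as for Tpm3-rs7 (37.3% to 48.0% of the pair in CON, 19% to 21.5% in GF), while the total of Glo1 and Gm13443 is also lower in GF.

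The other 2 called genes have little annotation. AC149090.1, on the unplaced scaffold JH584304.1, was at 82.0, 43.0, 48.1 and 57.0 CPM in CON and 16.2, 8.91, 22.9 and 17.9 CPM in GF (log2 fold change -1.80, SE 0.25, adjusted p = 0.0258, edgeR). AA465934, a noncoding transcript on chromosome 11, was at 12.7, 14.6, 7.61 and 9.42 CPM in CON and 0.609, 0.748, 3.42 and 3.54 CPM in GF (log2 fold change -2.42, SE 0.44, adjusted p = 0.0925, edgeR). In both, the 4 CON libraries were above all GF libraries.

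Galt, the uridylyltransferase of galactose metabolism, shared its pattern with its neighbours on chromosome 4. Galt (41755228 to 41758695, plus strand, GRCm38) was at 7.93, 7.24, 10.7 and 11 CPM in CON and at 32.1, 29.2, 23.9 and 12.7 CPM in GF. GF-P4 was close to the CON libraries and the other 3 GF libraries were far above them. Its log2 fold change was 1.39 (SE 0.26, adjusted p = 0.0992, edgeR). Its counts may include reads of the opposite strand, since strand was not used.

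The chemokine gene Ccl27a was at 53.9, 53.6, 46.4 and 18.6 CPM in GF-P1 to GF-P4 and at 14.3 to 21.0 CPM in CON. Dctn3, a dynactin subunit, was at 69.0, 93.6, 72.1 and 33.0 CPM in GF and 30.7 to 46.6 CPM in CON. Again GF-P4 lay within the CON range or next to it. Il11ra1, a receptor chain for interleukin-11, was at 11.7, 10.9, 9.39 and 3.43 CPM in GF and 3.41 to 5.4 CPM in CON, and Rpp25l followed the same order. These 5 genes span 74.3 kb. Of the 5, only Galt was called, and the others had an adjusted p of 0.176 to 0.328 in edgeR. Among the genes within 300 kb of any called gene, 34 of 176 (19.3%) had an unadjusted p under 0.05, against 11% of all genes, and neighbours that overlap are not independent.

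**Figure D4:**
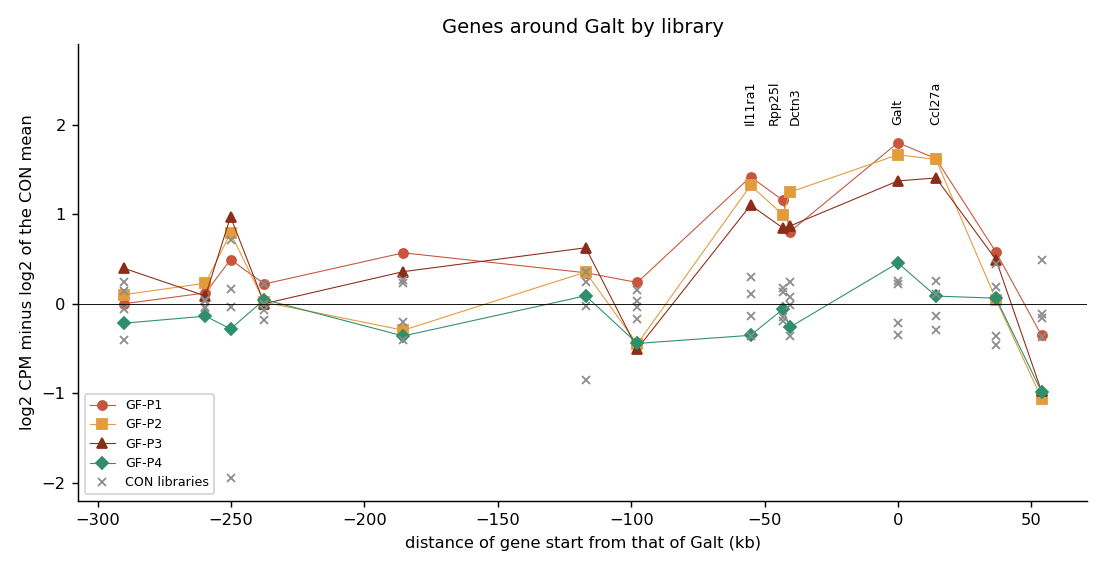
Log2 CPM of each library minus the log2 of the CON mean (vertical axis) for 14 genes tested within 300 kb of Galt, by distance of their starts from that of Galt in kb (horizontal axis); crosses are the 4 CON libraries. GF-P1, GF-P2 and GF-P3 are high at the 5 named genes, and GF-P4 stays with the CON libraries there.

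No gene of the immune lists was called by edgeR. Of 12 complement genes tested, 2 were higher and 1 lower in GF at an unadjusted p under 0.05. The shares over all genes at that p were 5.25% higher and 5.79% lower. C1qc, a chain of the first complement component, was at 4.22, 6.18, 6.51 and 6.24 CPM in CON and 7.98, 10.1, 13.7 and 8.89 CPM in GF (log2 fold change 0.77, adjusted p = 0.254 in edgeR and 0.0494 in DESeq2). C1qa was at 13.1 to 14.4 CPM in CON and 15.5 to 19.9 CPM in GF without overlap, and C1qb at 5.68 to 8.45 and 6.73 to 9.66 CPM with overlap. The summed level of the 12 microglial markers was 228 to 287 CPM in CON and 249 to 282 CPM in GF. None of 16 genes for the recognition of microbes, of 18 interferon-stimulated genes or of 6 genes of the aryl hydrocarbon receptor pathway was called. At an unadjusted p under 0.05 these lists held 1, 1 and none, against 11% of all genes in either direction.

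Genes that respond to glucocorticoids were tested as a list of 15, of which none was called. At an unadjusted p under 0.05, 5 were higher and none lower, against 5.25% higher and 5.79% lower over all genes. Of the 15, 14 had a positive log2 fold change. The median was 0.20, which was 0.09 without GF-P4 and 0.30 without GF-P1. Tsc22d3, a glucocorticoid-induced leucine zipper protein, was at 38.3, 36.4, 43.1 and 38.5 CPM in CON and 51.6, 47.7, 56.8 and 80.6 CPM in GF. All GF libraries were above CON, with GF-P4 the highest (log2 fold change 0.60, adjusted p = 0.254 in edgeR and 0.0388 in DESeq2). Sgk1, a kinase, was at 39.5 to 54.9 CPM in CON and at 59.9, 47.0, 94.0 and 108 CPM in GF. Plin4, a lipid droplet protein, was at 14.6 CPM in GF-P4, 1.09 to 4.21 CPM in the other GF libraries and 1.06 to 1.69 CPM in CON. Fkbp5, another standard target, differed by 0.02.

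Transmitter and receptor genes were not called. Of 14 serotonin genes tested 2 were higher and none lower at an unadjusted p under 0.05, against 5.25% and 5.79% of all genes. Htr5a, a serotonin receptor, was at 14.8, 19.3, 17.8 and 17.5 CPM in CON and 22.8, 24.8, 25.1 and 23.4 CPM in GF without overlap (log2 fold change 0.46, adjusted p = 0.22 in edgeR and 0.0374 in DESeq2). Of 21 GABA genes 1 was higher and 1 lower at that p, and of 32 glutamate receptor and scaffold genes 1 and 1. Gabra2 had a log2 fold change of -0.36 and Gria1 of -0.23. Among 22 receptors for social and stress peptides, 1 was higher and 2 lower at that p.

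More splicing and chaperone genes were lower than higher in GF at an unadjusted p under 0.05, and none was called. The shares over all genes were 5.25% higher and 5.79% lower, and several counts of higher genes were not far from theirs. Whether these lists differed as sets was not tested. Of 43 splicing regulators tested, none was called and 2 were higher and 10 lower at an unadjusted p under 0.05, and of 46 core spliceosome genes 3 were higher and 6 lower. Hnrnph1, which binds G-rich RNA, was at 134 to 165 CPM in CON and 58.9 to 128 CPM in GF. Sfpq, a paraspeckle protein, was at 132 to 161 CPM in CON and 100 to 128 CPM in GF. The cold-inducible RNA-binding protein genes Cirbp and Rbm3 had log2 fold changes of 0.46 and 0.63. Of 22 endoplasmic reticulum chaperones and unfolded protein response genes 2 were higher and 4 lower, among them the disulphide isomerase Pdia4, at 59.0 to 69.4 CPM in CON and 45.7 to 51.9 CPM in GF. Of 27 cytosolic chaperones 2 were higher and 5 lower, and Dnajb6 differed by -0.10.

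No gene of the cholesterol or barrier lists passed the test, and the barrier list was mixed. Over all genes 5.25% were higher and 5.79% lower at an unadjusted p under 0.05. Of 25 genes of cholesterol synthesis 7 were higher and none lower at that p. Lss, Msmo1 and Mvd, which act in that pathway, had log2 fold changes of 0.37, 0.35 and 0.48. Of 17 genes of tight junctions and blood-brain barrier transport tested, 5 were higher and 3 lower at that p, with a median of 0.01. Slc2a1, the glucose transporter of the blood-brain barrier, was at 36.4, 39.6, 48.7 and 51.4 CPM in CON and 59.2, 59.4, 94.4 and 71.7 CPM in GF (log2 fold change 0.68, adjusted p = 0.247 in edgeR and 0.0162 in DESeq2). Of 22 collagens none was higher and 3 were lower at an unadjusted p under 0.05. Col12a1 was at 16.3 to 21.8 CPM in CON and 10.3 to 12.9 CPM in GF, and Col1a1 at 8.81 to 10.7 and 4.39 to 6.66 CPM, in both cases without overlap. The 10 meningeal markers all had a negative log2 fold change, with 2 lower at that p and a median of -0.27, and their summed level was 900 to 1248 CPM in CON and 614 to 1042 CPM in GF. Their part in the collagen values was not tested.

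Marker genes of other tissue differed in single libraries, and the choroid plexus and ependyma markers also tended to be lower in GF. In bulk tissue, fewer cells of a type and less RNA per cell cannot be told apart. The summed choroid plexus and ependyma markers were 45.7 to 297 CPM in CON and 28.8 to 44.4 CPM in GF. Of the 7 tested none was called, and 4 were lower and none higher at an unadjusted p under 0.05. Over all genes 5.79% were lower at that p. The median log2 fold change of the 7 was -0.66, which was -0.51 without CON-P2 and -0.97 without CON-P1 and CON-P3. Ttr, a carrier of thyroxine, was at 24.0, 246, 74.1 and 29.7 CPM in CON and 13.4 to 16.3 CPM in GF. Kl, which encodes Klotho, was at 7.26, 15.6, 10.1 and 7.50 CPM in CON and 4.81, 3.26, 3.25 and 4.78 CPM in GF (log2 fold change -1.33, adjusted p = 0.1002 in edgeR). CON-P2 was the highest library for both.

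The summed striatal and basal forebrain markers were 186 to 214 CPM in CON and 165 to 374 CPM in GF, highest in GF-P1. Drd1, a dopamine receptor, was at 25.7 CPM in GF-P1 and 12.6 to 14.6 CPM in the other GF libraries, and Adora2a, an adenosine receptor, at 13.2 and 0.408 to 1.23 CPM. GF-P1 is also the library in which Fos, Arc and Egr2 were low, and the part of the dissection in this was not tested. The median log2 fold change of the striatal list was 0.43 and turned negative without GF-P1. Myelin markers had a median of 0.16, which was 0.39 without CON-P1 and CON-P3 and 0.08 without GF-P1. Of 10 markers of excitatory neurons 3 were lower at an unadjusted p under 0.05, and of 9 markers of amygdala nuclei 2 were. The share of all genes lower at that p was 5.79%. The amygdala markers were present in all libraries, at a sum of 327 to 410 CPM in CON and 316 to 412 CPM in GF.

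Beyond the edgeR calls, DESeq2 called 96 genes with a mean of at least 5 CPM. The largest falls were of Gm42418, Gm24187, Mir6236 and Lars2, which followed the ribosomal RNA reads of CON-P1 and CON-P3. Lars2, for example, was at 21846 and 5106 CPM in these libraries and at 15.8 to 141 CPM in the other 6. Falls outside that set were those of Ttr, Kl, Aox4, Prelp and Prdm16, and the largest rises included those of A830036E02Rik, Ccl27a, Cfap74, Ctla2a, Ighm, C1qc, Adgrl4, Sgk1 and 1110008P14Rik. Cfap74 was at 2.53 to 7.44 CPM in CON and 9.79 to 13.6 CPM in GF, and Ighm, the heavy chain of immunoglobulin M, at 3.04 to 4.72 and 4.96 to 11.9 CPM. Of the DESeq2 calls also tested by edgeR, 83.2% had groups that did not overlap.

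The same contrast was made in mice taken after social interaction, where 166 of 15078 genes were called (1.1%), of which 69 (0.458%) had more and 97 (0.643%) fewer counts in GF-SI. These libraries share no animals with the naive ones, but each is from 1 mouse, the groups are larger, and the same breeding stocks are set against each other. Of the 21 genes called in naive mice 20 were tested there, 14 had the same sign and 5 were called, all with the same sign. Pign was at 16.2 ± 1.47 CPM (SD, n = 8) in CON-SI and 25.1 ± 2.59 CPM (SD, n = 12) in GF-SI, a log2 fold change of 0.63 (adjusted p = 2.63e-05, edgeR). AA465934, Hist1h2al, Tuba1c and Krt12 had log2 fold changes of -2.95, -2.79, -2.74 and 0.86. Tuba1c varied widely in CON-SI, from 0.63 to 20.8 CPM with a median of 1.06 CPM, against a median of 0.922 CPM in GF-SI, so the medians were close and some CON-SI mice lay at the GF-SI level. The others were not called there, and Tpm3, Rpl21, Coq2, AC149090.1 and Gkn3 had the same sign at an unadjusted p of 0.00644 or less. The 6 with the opposite sign were Galt, Glo1, Kcnj16, Gm22442, Morn2 and Rps24-ps3, of which Gm22442 had an unadjusted p of 0.0472 (log2 fold change 0.24). Rps24-ps3 varied widely among single mice, from 1.11 to 36.5 CPM in CON-SI (median 2.58) and 0.487 to 45.0 CPM in GF-SI (median 1.26). Tpm3-rs7 ran from 27.0 to 61.0 CPM in CON-SI and 1.25 to 60.3 CPM in GF-SI.

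Fosb did not keep its difference after social interaction. It was at 30.4 ± 8.78 CPM (SD, n = 8) in CON-SI and 32.2 ± 9.18 CPM (SD, n = 12) in GF-SI, a log2 fold change of 0.08 (SE 0.17, adjusted p = 0.828, edgeR). The difference of the 2 fold changes was -1.05 (SE 0.30, unadjusted p = 0.0018, adjusted p = 0.149, edgeR) and did not pass. For Galt the values were -0.31 after social interaction and -1.70 for the difference (adjusted p = 0.149).

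The difference of the GF effect between the 2 settings passed for 15 of 15841 genes (0.0947%), 7 positive (0.0442%) and 8 negative (0.0505%), among them Kcnj16, Glo1 and Gm22442. Kcnj16 was at 17.5 ± 4.68 CPM in naive CON but 7.22 ± 1.70 CPM in CON-SI, while GF was at 7.09 ± 1.85 CPM and GF-SI at 8.27 ± 1.79 CPM, and the difference was 1.5 (SE 0.27, adjusted p = 0.0391, edgeR). By these means the naive CON libraries stood apart, but levels in naive libraries and after social interaction were scaled separately. The naive values are also mostly from pools, and the others from single mice. Glo1 was at 70.4 ± 7.42 CPM in naive CON and 46.5 to 54.8 CPM as the mean of the other 3 groups (difference 0.66, adjusted p = 0.0944, edgeR), and Gm22442 likewise was highest in naive CON, at 28.7 ± 5.30 CPM. No gene passed this test without CON-P1, or without both CON-P1 and CON-P3, in edgeR, where 1382 had an unadjusted p under 0.05 in the latter and DESeq2 on all libraries called 400. Without CON-P2, CON-P3, GF-P2 or GF-P3 it passed for 3 to 6 genes, and without CON-P4, GF-P1 or GF-P4 for 273, 26 and 30.

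**Figure D5:**
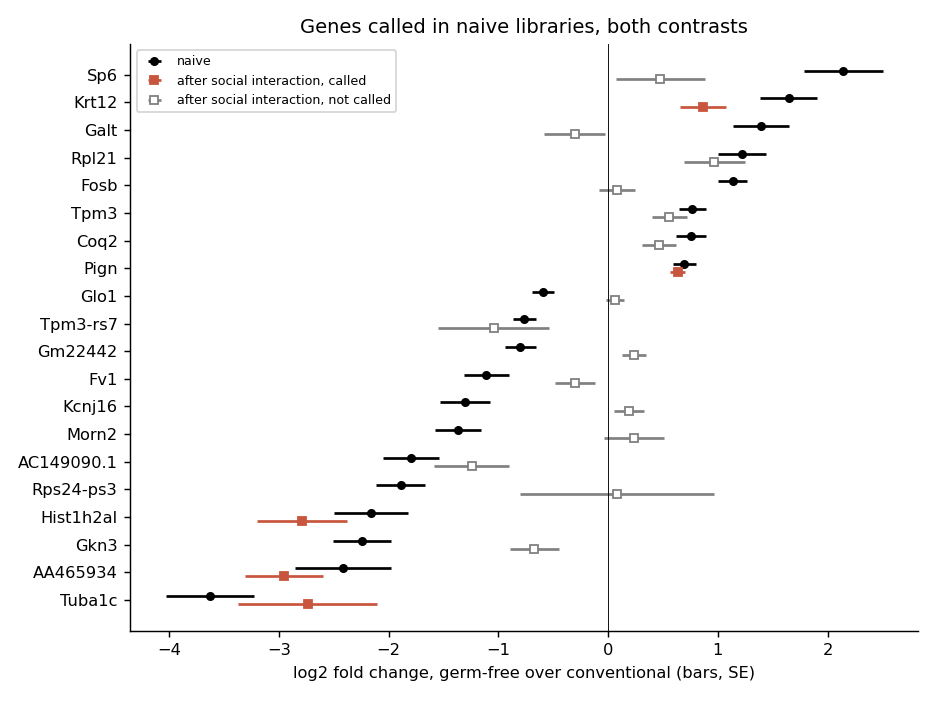
Log2 fold change of germ-free over conventional mice with SE (horizontal axis) for the 20 genes called in naive libraries and tested after social interaction (vertical axis). Black circles are the naive contrast, red squares genes also called after social interaction and open squares genes not called there. Fosb, Glo1, Kcnj16, Morn2 and Rps24-ps3 lie near 0 after social interaction, where Rps24-ps3 varied widely among the mice of both groups.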

How the data were processed

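RNA was sequenced from dissected amygdala. The deposited values are whole-number counts per gene that the authors obtained from stranded, ribodepleted libraries with CASAVA, Trimmomatic 0.32, STAR 2.4.0f1 and HTSeq 0.6.0 on GRCm38.p3, per the processing notes, without use of strand. They are not scaled between libraries. The table holds 43629 genes in 40 libraries, all columns were mapped to a group by name, and 42548 genes took a symbol from GENCODE vM21. The deposited fold changes and p-values of the authors were not used.

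GF was compared with CON with edgeR 4.0.16 (TMM scaling, filterByExpr, quasi-likelihood F-test, Benjamini-Hochberg adjustment, threshold 0.1) in R 4.3.3. DESeq2 1.42.0 was an alternative, with the others listed in the closing section. The test was tried on simulated data with known changes. Copies were found with blastn 2.17.0 among GENCODE transcripts. Windows were aligned with Biopython 1.88, and tables and plots made with pandas 2.3.3 and matplotlib 3.10.9.

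Named genes were all edgeR calls, the 10 largest rises and falls that DESeq2 alone called at a mean of at least 5 CPM, up to 4 members of each list with the smallest p, genes the study names, and paralogs. The comparison, the lists and the rule were chosen with earlier results of these data known. Rpl29, Gm13443 and the neighbours of Galt were chosen after their values were seen. Some genes and sequences that the rule covers are not reported here.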

Additional observations from a re-analysis of the deposited data

Results flagged for a closer look

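Single libraries stood apart from the other 3 of their group, by Dixon's test at the 95% level, in 23 of 270 groups of 4 values over 135 genes (8.52%). Chance alone flags about 5% of groups. In GF-P1, Camk2a (1184 CPM), Drd1 (25.7 CPM) and Adora2a (13.2 CPM) were high. In GF-P2, Crhr1 was high (11.9 CPM), and Glo1 (41.5 CPM), Dnajb6 (79.5 CPM) and Ttr (13.4 CPM) were low. In GF-P3, Tpm3 (124 CPM), Rpl29 (17.4 CPM), Siglech (12.8 CPM) and Scg5 (199 CPM) were high, and Tuba1c (0.527 CPM) and Col1a1 (4.39 CPM) low. D030028A08Rik was high in GF-P4 (5.57 CPM). In CON-P1, Taf15 (42.5 CPM), Gja1 (237 CPM) and Gm24187 (1130.3 CPM) were high, and C1qc (4.22 CPM), Capza1 (20.9 CPM) and Gpaa1 (5.74 CPM) low. Homer1 (319 CPM) and Pdia4 (69.4 CPM) were high in CON-P3, and Glo1 was low in CON-P4 (59.3 CPM).

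The GF effect differed between naive mice and mice after social interaction for 15 genes in edgeR's test of the difference with BH adjustment. On the log2 scale it was higher after social interaction for Gm5619 (3.89), Dsp (3.41), Kcnj16 (1.5), Gm22442 (1.04), Fam13c (0.96), Sgsm2 (0.67) and Glo1 (0.66). It was lower for Gm10260 (-1.17), Dennd6b (-0.84), Lrfn4 (-0.83), Gpaa1 (-0.75), Tcte2 (-0.68), Fbxl4 (-0.66), Atp6v0b (-0.62) and B3gat3 (-0.54). None of the 15 differences passed without CON-P1.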

How the results depend on the processing

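The 21 calls of GF against CON became 155 with DESeq2, 139 with DESeq2 and its fold change prior, 205 with no filter on low counts and 58 in one fit over 6 groups, which kept 9 of the 21, and 8 at an adjusted p of 0.05. With a replicate block by pool number there were 23 calls, of which 16 were shared. The correlations of same-numbered libraries ran from -0.163 to 0.251, and those of differently numbered ones from -0.247 to 0.199. With so few pools these values cannot decide whether the numbers pair the samples. Leaving out 1 library gave 9 (without CON-P2) to 29 calls (without GF-P4). All other settings stayed within 1.5 times of 21. None of the 21 called genes changed sign in any setting run. Of named genes that were not called, Adora2a changed sign without GF-P1 (-0.96), and Bdnf, Fkbp5, Ier5 and Nr4a1, all at small fold changes, did so in 1 to 3 settings each. The 166 calls after social interaction became 521 with DESeq2 and 561 in one fit over 6 groups. The 15 differences between the settings became 400 with DESeq2, 0 without CON-P1 and CON-P3, and 0 (without CON-P1) to 273 (without CON-P4) with 1 library left out. The cause was not tested. With 4 pools a group at 10153860 to 15320023 counts, a gene that was not called is not shown to be equal.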
